A study of Mus musculus with 32 samples.

Results

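Of 18231 DART-seq sites called in mouse hippocampal neurons, 1711 were highly edited, meaning that the C-to-U (C2U) editing level averaged over the wild-type (WT) libraries was at least 10%. These sites were chosen by that editing level alone, so the level itself is given here as a description. They lie in 1368 of the 5643 RNAs with a called site, and the other 16520 called sites are the comparison.

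N6-methyladenosine (m6A) is a methyl mark placed on adenosines of mRNA by a nuclear complex whose catalytic subunit is METTL3, mostly within the consensus DRACH (D is A, G or U, R is A or G and H is A, C or U), and it is read by YTH-domain proteins. In DART-seq, the YTH domain is fused to the cytidine deaminase APOBEC1, and the fusion protein deaminates cytidines next to methylated adenosines, which are then read as C-to-U changes. In neurons, m6A has been tied to the stability, translation and transport of mRNAs to dendrites and axons.

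The neurons were grown on a porous membrane that separates cell bodies (soma) from axons and dendrites (neurites), and came from C57BL/6 pups (WT) or from Mettl3 fl/fl pups (Mettl3 KO). Every culture, WT included, received an adeno-associated virus that expresses Cre under the neuronal hSyn promoter, so that Mettl3 is removed only where this promoter is active, and on day 15 of culture neurons were used after 16 h of silencing with 1 µM TTX and 50 µM D-AP5. They were then left untreated (Ctrl) or depolarized for 2 h in 55 mM KCl. The 8 groups formed by genotype, compartment and KCl had 2 RNA-seq libraries each, 16 in all, from pooled pups of both sexes and distinct litters, and DART-seq covered the same groups with another 16 libraries.

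The WT and Mettl3 KO neurons differed in mouse line as well as in Mettl3, and processes that stayed above the membrane are counted with the soma. Each site has 1 deposited value, the mean over the 8 WT DART-seq libraries, so no spread between replicates can be given for any site. The read depth behind it is known only to have met the minimum used in calling. Sites had been called only where editing in WT exceeded that in Mettl3 KO RNA, so lower editing in KO RNA is part of what defines a called site. Calling also needed a minimum number of reads and of edited reads. The RNA-seq libraries held 33789183 to 71394235 counts. Mettl3 stood at 3.42 and 3.28 FPKM (counts scaled to exon length and library size) in the 2 untreated WT soma libraries. It stood at 1.71 and 2.29 FPKM in the 2 untreated KO soma libraries, so RNA of the gene was lower but present. The FPKM counts the whole gene and does not measure how complete the knockout was. The paper reports loss of the exon targeted by Cre and near complete loss of METTL3 protein. The 2 untreated KO soma libraries differed more from each other (SD of the log2 ratio over genes, 1.07) than the 2 WT libraries (0.32). The sum of 10 neuronal markers was 908 to 1300 FPKM in the 8 WT libraries and 237 to 1459 FPKM in the 8 KO libraries, and the sum of 11 astrocyte markers was 267 to 786 FPKM and 498 to 4261 FPKM. In such bulk libraries, more cells of a type and more RNA per cell cannot be told apart.

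The sequences around the most highly edited sites are shown because the bases around the edited cytidine differed between highly edited and other sites. Each line gives 21 bases of the mm10 genome on the strand of the RNA, 5′ to 3′, with T for U. The capitals mark the called m6A motif, and its C, at the middle, is the edited base. The first 9 are the windows of the 10 highest values, 2 of which share a window. The last 6 are the highest site of Reln, the repeat in Snapc1l, the highest sites of Bdnf, Map2 and Ogdh, and the only site of Actb for contrast.

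Psmd12 (chr11:107497818-107497838, + strand, 47.4%): ttactctcGACcttttttgct
Myo5a (chr9:75136407-75136427, + strand, 44.0%): ttggttttGACaagaggtaca
9330159F19Rik (chr10:29227773-29227793, + strand, 43.7%): ctagtgttGACtttgaaatta
Kbtbd11 (chr8:15032260-15032280, + strand, 41.7%): aaatgattGACaagacacaca
Rps15a (chr7:118105460-118105480, - strand, 38.5%): gaaactctGACttaagacata
Psat1 (chr19:15905971-15905991, - strand, 38.1%): ttgggattGACtacagaaact
Gm14391 (chr2:175197412-175197432, - strand, 37.2%): tgtttactGACtttcataaaa
Cxcr4 (chr1:128588670-128588690, - strand, 37.1%): tgaggtttGACttaatttata
Oga (chr19:45776936-45776956, - strand, 36.7%): ttcgccagGACtagatatcac
Reln (chr5:21978980-21979000, - strand, 16.6%): ttgaaatgAACatgggctgca
Snapc1l (chr12:73971461-73971481, + strand, 34.6%): ctgagataGACtggaagccgt
Bdnf (chr2:109724641-109724661, + strand, 13.7%): ggaattaaAACaatgtcaagg
Map2 (chr1:66440353-66440373, + strand, 12.8%): cccccaaaGACctcttgatca
Ogdh (chr11:6347100-6347120, + strand, 10.5%): gtgttatcGACgaaatggcca
Actb (chr5:142904674-142904694, - strand, 0.595%): ttgtgatgGACtccggagacg

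Most highly edited sites lay just above the threshold, and only 192 reached 20%. Their median was 12.8% (quartiles 11.2% and 16.0%), whereas the other called sites had a median of 3.21% (1.90% and 5.17%). Sites of at least 10% and under 15% numbered 1188, those from 15% to 20% 331, those from 20% to 30% 154, those from 30% to 40% 34 and those of 40% or more 4. The threshold did not fall in a gap of the distribution. The 5 members at its edge, in Nsa2, Mcl1, Mcrs1, Tmem33 and Ufsp2, were all listed at 10%, and the nearest sites left out, in Nbr1, Hnrnpa3, Lonrf2, Desi1 and Ddn, at 9.99%, 9.98%, 9.98%, 9.98% and 9.98%.

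**Figure D1:**
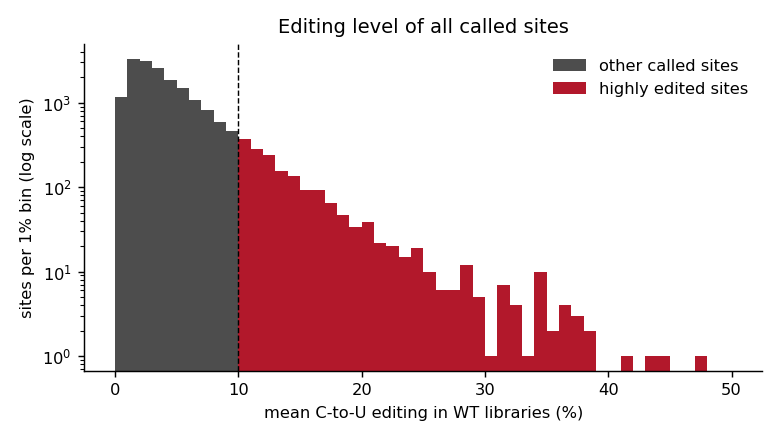
Number of called sites per 1% bin of the mean C2U editing level over the WT libraries (x axis, %; y axis, sites on a log scale), with the 10% threshold as a dashed line. The 1711 highly edited sites are the upper tail of 1 continuous distribution that reaches 47.4%.

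The highest editing level was in Psmd12, which encodes a subunit of the proteasome's regulatory particle. This site, at 47.4%, lay 98 bases after the stop codon in the last of 11 exons. The next highest, at 44.0%, was in the coding sequence of Myo5a, the myosin Va motor that moves cargo along actin, in exon 6 of 41. Of the 10 highest sites, 8 were in 3′UTRs and 2 in coding sequence, the latter in Myo5a and in Oga, which encodes the enzyme that removes O-GlcNAc from proteins (exon 4 of 16, 36.7%). All 10 had GAC rather than AAC, 8 had a T before it (TGAC), and 1, that of Psmd12, was followed by another C. The share of A and T in the 101 bases around these 10 sites was 58.4% to 73.3%.

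The host RNAs of the highest sites were of moderate or low abundance, except Psmd12. Psmd12 averaged 66.6 FPKM over the 8 WT RNA-seq libraries. Cxcr4, the receptor of the chemokine Cxcl12, averaged 1.13 FPKM and carried its only called site (37.1%) 166 bases after the stop codon. Psat1, an enzyme of serine synthesis, averaged 4.36 FPKM, and its window occurs 2 times in the genome. The sites of Gm14391 (37.2%) and Gm6710 (37.0%), 2 predicted genes on chromosome 2, have the same 31-base window, which occurs 16 times in the genome, so reads of these and other copies cannot be told apart from the sequence around the site.

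The base after the edited cytidine differed between highly edited and other sites. It was C at 136 of 1711 highly edited sites (7.95%, exact binomial 95% confidence interval 6.71% to 9.33%) and at 5325 of 16520 other sites (32.2%, 31.5% to 33.0%). It was A at 44.5% of the highly edited sites against 30.8% of the others, T at 35.5% against 22.9% and G at 12.04% against 14.1%. These intervals cover counting error only, and differences between the 2 sets of sites are given here as descriptions, with no test, because sites of 1 RNA share their source. Seen from the other side, 13.01% of all called sites followed by A and 13.9% of those followed by T were highly edited, but 2.49% of those followed by C, against 9.39% of all called sites. Among the 192 sites of at least 20%, 6 were followed by C.

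The base before the motif also differed, whereas the motif's own variable base hardly did. The base before GAC or AAC was T at 34.1% of highly edited sites and 20.2% of the others, and G at 19.4% and 31.4%. GAC made up 55.1% of the highly edited sites and 53.6% of the others. The motif TGAC was found at 24.6% of highly edited sites against 14.8% of the others, and GGAC at 7.77% against 17.1%. Since DRACH excludes a G after the C as well as a C at its start, it covers part of the same bases, and it was met by 77.1% of highly edited sites and 70.2% of the others.

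Motifs of 5 bases, the called motif with 1 base on either side, spanned a wide range. Of 296 sites with TAACT, 24.7% were highly edited, of 840 with TGACA 23.5%, and of 673 with TGACT 21.2%. At the other end, 8 of 803 sites with GGACC (0.996%) and 5 of 640 with CAACC (0.781%) were highly edited. GGACT, which meets DRACH, held 46 highly edited sites among 666 (6.91%). Each 5-base motif was counted at its own position, so no site counts under 2 motifs.

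**Figure D2:**
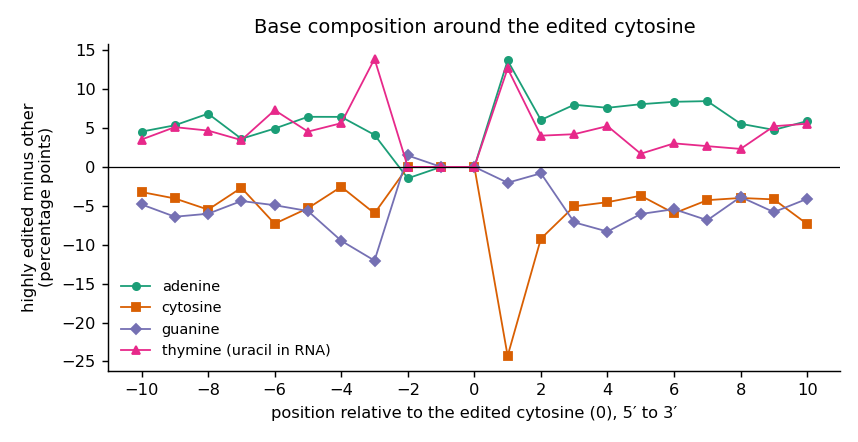
Difference in base composition between highly edited and other called sites (y axis, percentage points) at each position from 10 bases before to 10 bases after the edited cytosine (x axis), as read from the genome on the strand of the RNA. The largest differences are cytosine at the next position, which was 24.3 points less frequent at highly edited sites, and thymine 3 bases before, which was 13.9 points more frequent.

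Beyond the motif, highly edited sites lay in stretches richer in A and T. The median A and T content of the 101 bases centred on the edited base was 55.4% (quartiles 49.5% and 61.4%) for highly edited sites and 46.5% (41.6% and 52.5%) for the others. It was 59.4% against 49.5% within 3′UTRs and 52.5% against 45.5% within coding sequence. With the sites split at the quartiles of A and T content into 4 groups, in the highest (54.5% or more), 955 of 4494 were highly edited (21.3%), and in the lowest (41.6% or less) 106 of 4630 (2.29%). By chromosome, the highly edited share of called sites was lowest on chromosome 17 (5.83%) and highest on chromosome 13 (13.1%) among those with a highly edited site, and the median A and T content around all their sites was 45.5% and 50.5%. In each of the 4 groups fewer of the sites followed by C were highly edited than of those followed by A, G or T: 0.285% against 1.41% to 4.06% in the lowest group and 6.75% against 26.5% to 27.7% in the highest.

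Highly edited sites were more often in 3′UTRs. Of the 1637 highly edited sites in exons of coding transcripts, 788 (48.1%) were in the 3′UTR, 802 (49.0%) in coding sequence and 47 (2.87%) in the 5′UTR. Of the 16069 other sites, 32.1% were in the 3′UTR, 63.6% in coding sequence and 4.29% in the 5′UTR. A further 21 highly edited sites fell in noncoding transcripts, 44 outside annotated exons of their RNA, 17 of them downstream of its end, and 9 in RNAs whose name was not matched to the annotation. By exon, 53.2% of the highly edited sites and 40.8% of the others were in last exons, 42.4% and 50.0% in internal exons, and 2.71% and 7.16% in first exons.

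Within 3′UTRs, highly edited sites lay farther from the stop codon. Their median distance after it was 932 bases (quartiles 418 and 1851), against 699 bases (250 and 1614) for the others, and 24.4% lay within 400 bases of it against 34.2%. Counted over all exonic sites of coding transcripts, 7.27% of the highly edited sites and 9.75% of the others were within 100 bases of the stop codon on either side. Over the same 1637 and 16069 sites, counted per site, the 3′UTR of the transcript had a median length of 1601 bases against 1179.

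In internal exons, the lengths and the distances to exon ends differed little between the sets. The internal exons with a highly edited site had a median length of 135 bases (quartiles 102 and 184), and those with another site 145 bases (108 and 199). Exons of at least 400 bases held 7.54% and 9.27% of the internal-exon sites, and the median distance to the nearer exon end was 34 bases in both. Last exons with a highly edited site had a median length of 2453 bases, against 2022 bases for those with another site, and over all exons the medians were 1024 and 357 bases.

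**Figure D3:**
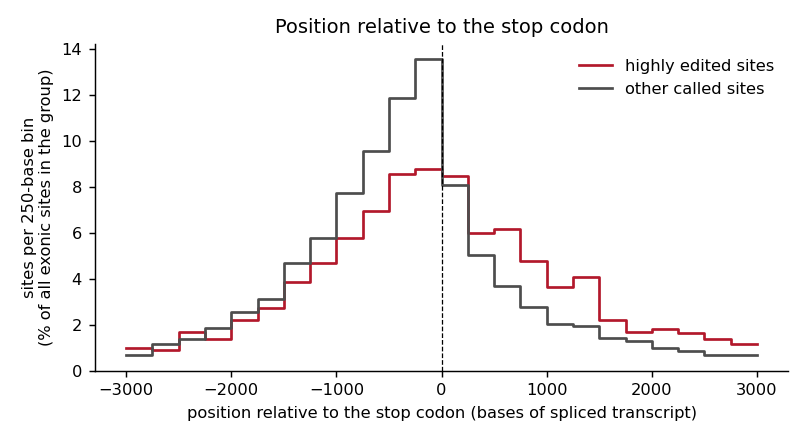
Position of sites relative to the stop codon (x axis, bases of the spliced transcript, negative before the stop codon) in 250-base bins (y axis, % of all sites of the set in exons of coding transcripts, 1637 highly edited and 16069 other). The other sites peak just before the stop codon, and the highly edited sites exceed them throughout the first 3000 bases of 3′UTR.

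The region and the neighbouring bases both moved with the share of highly edited sites. In 3′UTRs, 17.4% of the sites followed by A, 17.4% of those followed by T and 16.1% of those followed by G were highly edited, but 4.18% of those followed by C. In coding sequence these shares were 10.5%, 11.02%, 6.44% and 1.57%. In the group of sites with the highest A and T content, 24.3% of 3′UTR sites and 17.2% of coding sites were highly edited, whereas in the lower groups the regions were closer, from the next highest to the lowest at 9.65% and 10.2%, 4.82% and 4.31%, and 3.54% and 1.97%. The part of A and T content in the difference between regions was not tested.

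Differences in the same direction were seen when the comparison was limited to RNAs with both kinds of site, pooled over those RNAs. The 1079 RNAs that carried both kinds of site held 1379 highly edited and 4128 other sites. There, C followed at 8.12% of the highly edited sites and 31.8% of the others, TGAC was found at 25.2% and 14.6%, and 48.7% against 36.4% of the exonic sites were in 3′UTRs. The median A and T content was 55.4% and 49.5%. In these RNAs the highly edited sites held a median of 58.0% of the editing summed over all sites.

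Highly edited sites were more frequent in less abundant RNAs. The median abundance of the RNA, counted per site and averaged over the 8 WT libraries, was 12.2 FPKM for highly edited sites and 17.3 FPKM for the others. Counted per RNA, the medians were closer, at 11.8 FPKM in hosts and 13.2 FPKM in RNAs with other sites only. Of the highly edited and other sites, 81.6% and 87.3% were in RNAs of at least 5 FPKM. With the sites split at the quartiles of abundance, from the least abundant RNAs (up to 8.17 FPKM) to the most abundant (from 34.3 FPKM), the highly edited share fell from 12.8% through 10.8% and 8.89% to 5.02%. The 10th percentile of editing levels was 1.55% in the first of these 4 groups and 0.898% in the last, so called sites of rarer RNAs also started from higher values. A site needs a minimum of reads and of edited reads to be called, and the part of these minima in this order was not tested. Within each abundance group, sites followed by C had the smallest highly edited share, from 4.18% in the lowest to 0.909% in the highest.

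**Figure D4:**
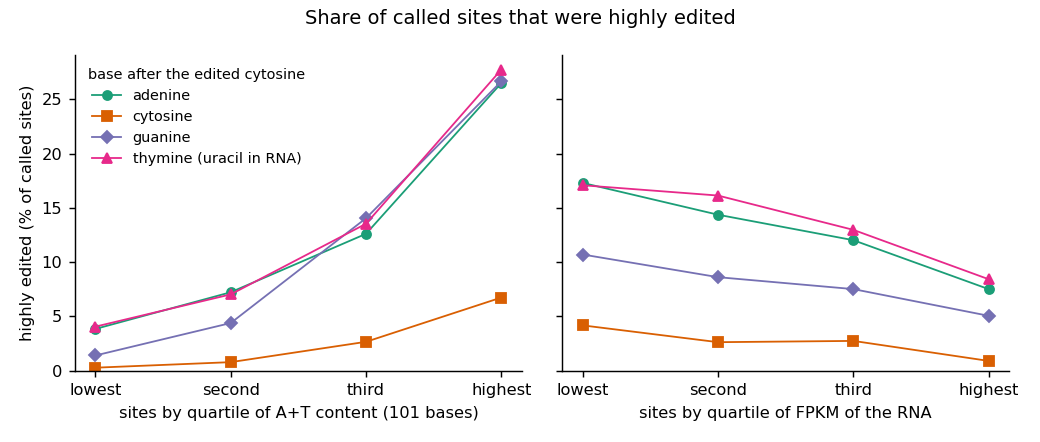
Share of called sites that were highly edited (y axis, %), for sites grouped by the base after the edited cytosine (colours) and by 4 groups split at the quartiles of A and T content in the surrounding 101 bases (left) or of the FPKM of the RNA (right). The share rises with A and T content and falls with abundance for each following base except that for cytosine it is 2.63% and 2.75% in the middle abundance groups, and cytosine is lowest in all groups.

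Most host RNAs carried 1 highly edited site. This was so for 1110 of the 1368, while 199 had 2 and 59 had 3 or more, and the median number of called sites of any level was 3 in hosts and 2 in the other RNAs. Highly edited sites were less often close to another called site of the same RNA: 21.04% had one within 100 bases, against 24.6% of the other sites. They were also more often the only called site of their RNA (255 sites, 14.9%) than the other sites were (1570 sites, 9.50%).

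Reln, which encodes the secreted glycoprotein reelin made by interneurons, had the most highly edited sites. Of its 54 called sites 9 were highly edited, at 10.02% to 16.6%, all in coding sequence and each in a different exon, from exon 18 to exon 55 of 65. Its other 45 sites had a median of 4.39%. The base after the edited cytidine was C at 1 of the 9 and at 8 of the 45.

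The next counts of sites rest in part on repeated sequence. All 6 sites of Snapc1l had the same 31-base window and the same value, 34.6%, at 6 positions spaced 24 bases apart, and the window occurs 8 times in the genome. The 6 lines of Ccl27a, a chemokine gene, were 2 positions 13 bases apart in its annotated 5′UTR (12.5% and 18.9%), each listed 3 times, and their windows occur 5 times in the genome. Usp9x, a deubiquitinating enzyme, had 5 of 9 sites highly edited, the highest at 31.4%. In all, 189 highly edited sites (11.05%) and 8.06% of the others had a window found elsewhere in the genome, and the 1711 lines stood for 1700 positions and 1676 windows.

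By function, highly edited sites were spread over the groups of RNAs examined, whose abundance also differed. Among RNAs with a called site, 24.2% had a highly edited one. Of the potassium channel RNAs with a site, 11 of 21 did, the highest being Kcna2, a voltage-gated channel of axons (23.4% at its only site), and Kcnma1, the large-conductance calcium-activated channel (18.03%). The median abundance over all 99 potassium channel genes of the list, with or without a called site, was 1.20 FPKM. RNAs of the m6A pathway came to 5 of 11: Hnrnpc, which binds RNA near m6A (23.7%), the demethylase Fto (14.0%), the reader Ythdf3 (12.96% at its only site) and the writer subunit Zc3h13 (10.9%) were the highest 4. Among RNAs of the zinc finger genes named Zfp, 14 of 42 had one, led by Zfp131 (22.3%) and Zfp629 (20.6%).

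Fewer RNAs of abundant housekeeping groups had a highly edited site. Of the ribosomal protein RNAs with a called site, 3 of 33 had one, in Rps15a (38.5%), Rpl5 (12.6%) and Rpl3 (10.6%). Of the RNAs of nuclear-encoded respiratory chain subunits, 2 of 36 had one, in Ndufa12 (10.4%) and Uqcrc2 (10.1%). The median abundances were 85.0 and 122 FPKM over all 90 and 88 genes of these lists, with or without a called site.

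Neuronal and RNA-binding groups were counted in the same way, against the 24.2% of all RNAs with a site. For postsynaptic RNAs the count was 5 of 20 (25%), with Dlg2, a scaffold of the postsynaptic density, at 14.8%, the AMPA receptor subunit Gria2 at 12.7% and the scaffolds Dlgap1 and Shank2 at 12.3% and 12.03%. For presynaptic RNAs it was 3 of 16 (18.8%), with the vesicle protein Sv2b at 20.1%, the calcium sensor Syt7 at 14.5% and the priming factor Unc13a at 10.3%. For cytoskeletal and motor RNAs it was 10 of 28 (35.7%), led by Map4 (18.8%), Ank2 (18.4%), Kif5b (16.9%) and Kif21b (15.6%). For RNA-binding proteins of granules it was 7 of 19 (36.8%), led by Purb (23.7%), Celf2 (21.3%), Fxr2 (16.7%) and G3bp2 (14.1%), and for chromatin regulators 4 of 13, among them Ncor1 (16.6%) and Kmt2d (11.1%). Protocadherin RNAs came to 2 of 8, Pcdhac2 (13.9%) and Pcdh1 (13.4%). Counted per site instead of per RNA, the highly edited share was 5.60% for cytoskeletal and motor, 6.43% for postsynaptic and 6.45% for chromatin RNAs. It was 5.06% for presynaptic, 8% for protocadherin and 10.3% for granule RNAs, against 9.39% of all called sites.

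Cell type markers were counted as well. Of 10 neuronal marker RNAs, all with a called site, Map2 was the 1 with a highly edited site. Of 9 astrocyte marker RNAs with a called site 3 had one, Slc1a2 (13.7%), S100b (13.2%) and Aqp4 (10.9%). The median abundance was 64.5 FPKM over the 10 neuronal and 18.7 FPKM over all 11 astrocyte markers. With so few RNAs no difference between the lists is read from these counts. The single microglial RNA, the single oligodendrocyte lineage RNA and both fibroblast or vascular RNAs with a called site had none.

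Of the 8 RNAs whose editing or transport the study examined in detail, 3 had highly edited sites. Bdnf, a neurotrophin, had 2 of 7 sites highly edited, the higher (13.7%) 502 bases after the stop codon. Map2, a dendritic microtubule-associated protein, had 2 of 16, the higher (12.8%) 1359 bases after it. Ogdh, an enzyme of the citric acid cycle, had 2 of 11, the higher (10.5%) in exon 13 of 24. The highest site reached 8.86% in Shank1, 8.01% in Leo1, 6.17% in Homer1, 5.23% in Camk2a and 0.595% in Actb, and Camk2a and Actb were the most abundant of the 8, at 553 and 834 FPKM.

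RNAs with 1 called site allow the site to be followed through the deposited score, which sums editing over the sites of an RNA, in WT, Mettl3 KO, soma and neurite RNA. For the 255 such RNAs with a highly edited site the score equalled the site's value within 0.1% for 129, was higher for 98 and lower for 28. Their median score was 13.7% in WT and, in the 252 with a KO value, 4.02% in KO (quartiles 2.23% and 6.18%). For the 1570 RNAs with 1 other site the medians were 3.73% and, in 1567, 0.658%. As a share of WT, the KO score had a median of 29.4% (quartiles 17.97% and 43.9%) in the former and 22.0% (6.98% and 38.3%) in the latter. The KO score was listed at 0 for 22 of the 252 (8.73%) and 334 of the 1567 (21.3%). Since KO editing entered the calling of sites, these are descriptions.

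Residual editing in KO RNA was seen at each of the 5 highest sites of this kind. Kbtbd11, of the kelch family, had scores of 41.7% in WT and 18.3% in KO, Cxcr4 37.1% and 8.51%, and Cmtm4, a MARVEL-domain membrane protein, 37.7% and 17.6%. Stxbp6, a SNARE-binding protein, had 35.8% and 13.2%, and Abhd17b, a depalmitoylating enzyme, 35.6% and 12.97%.

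The score was also deposited separately for soma and neurites, each over WT libraries with and without KCl. In RNAs with 1 highly edited site the median was 12.3% in soma and 15.2% in neurites, and 159 of 255 (62.4%) had the higher score in neurites. With 1 other site, the medians were 3.17% and 3.57% and the share was 57.9%. The neurite score was listed at 0 for 157 of these 1570 RNAs and the soma score for 47. Of the 255, these were 3 and 0, and the part of such values in the 2 shares was not tested. Among the 5 highest, Kbtbd11 stood at 41.6% in soma and 41.7% in neurites, Cmtm4 at 28.7% and 41.3%, Stxbp6 at 30.99% and 42.2%, Cxcr4 at 40.7% and 32.6% and Abhd17b at 37.7% and 29.6%. Neither direction was shared by all 5.

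For some hosts the score was below the level of their own highest site. In 110 of the 1368 hosts (8.04%) the WT score was lower than the level of the highest single site by more than 0.1%, against 130 of the other RNAs (3.04%). The 110 include the 28 hosts with 1 called site given above, and in 13 hosts it was lower by more than 1.5-fold. Psmd12 was among the 13, with a score of 0.285 against a fraction of 0.474 for its highest site. Rps15a was among the 110, with a score of 0.257 against a fraction of 0.385.

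The host RNAs were then compared between compartments in untreated WT neurons by RNA-seq, a measure that the choice of sites did not use. Rgs5, a regulator of G-protein signalling, rose most among hosts whose counts averaged 100 or more. It stood at 4.37 and 4.13 FPKM in soma and 24.3 and 19.8 FPKM in neurites, a log2 fold change of 2.31 (SE 0.14, edgeR quasi-likelihood test, adjusted p = 1.16e-04). Spp1, the secreted protein osteopontin, was at 2.93 and 1.89 FPKM in soma and 8.81 and 14.9 FPKM in neurites, and Ncs1, a neuronal calcium sensor, at 170 and 153 FPKM in soma and 630 and 855 FPKM in neurites. The soma and neurite libraries of these RNAs did not overlap, but the RNAs were picked as the largest called rises, so this adds no support. The call of Spp1 was lost without untreated WT soma replicate 2 (edgeR adjusted p = 0.0793) and without untreated WT neurite replicate 2 (0.0614). At the other end was Snhg11, a long noncoding RNA, with 92.4 and 92.5 FPKM in soma and 42.9 and 35.4 FPKM in neurites (log2 fold change -1.31, SE 0.15, edgeR adjusted p = 4.89e-04). The lymphocyte adaptor Blnk and Lmbr1l followed, with log2 fold changes of -1.18 and -1.19, and Blnk lost its call without untreated WT soma replicate 2 (edgeR adjusted p = 0.0793).

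Over all 1354 host RNAs tested, 143 were higher in neurites (10.6%) and 69 lower (5.10%), at an adjusted p of at most 0.05 and a change of at least 1.5-fold. Of all 23200 genes tested, 8.99% were higher and 4.52% lower, and of the 4212 RNAs with other sites only 10.9% and 3.96%. The median log2 fold change was -0.09 in hosts, -0.08 in RNAs with other sites only and -0.10 in all genes. In this fit the shares of hosts were near the background. The number called lower depended on single libraries. Without untreated WT soma replicate 1 it was 33 (2.44%), against 0.812% of all genes and 1.12% of RNAs with other sites only, and without replicate 2 it was 16 (1.18%), against 0.411% and 0.522%, so that in these 2 refits the hosts' share was above the background. In the same 2 refits the hosts' share called higher was also above that of all genes. Against RNAs with other sites only, it was lower without soma replicate 1 and higher without soma replicate 2. Without untreated WT neurite replicate 2 the hosts' share called lower was above the background too. Each such refit leaves 1 library in a group, so no trait of hosts is read from these shares. The 11 astrocyte markers summed to 267 and 273 FPKM in untreated WT soma and 786 and 506 FPKM in neurites, with none at 0 in any library. The 7 microglial markers summed to 3.55 and 3.11 FPKM in soma and 8.10 and 9.42 FPKM in neurites. For the 7 oligodendrocyte lineage markers the sums were 8.84 and 9.86 FPKM and 20.9 and 18.5 FPKM. Neuronal and fibroblast or vascular sums were higher in both neurite libraries as well. The part of cell types in these results was not tested.

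Hosts from the gene lists were called in both directions, beside 8.99% higher and 4.52% lower of all genes tested. Calls of list members without a highly edited site were not counted, so whether these counts are particular to hosts was not tested. Of 10 cytoskeletal and motor hosts 5 were higher in neurites, among them Map2 (28.2 and 29.0 FPKM in soma, 87.3 and 111 FPKM in neurites, log2 fold change 1.73) and the kinesin heavy chain Kif5b (1.72). Of 5 postsynaptic hosts 2 were higher, Dlg2 (1.21) and Shank2 (0.86). Of the RNAs the study examined that had no highly edited site, Shank1 and Camk2a were higher as well (2.05 and 2.06). Leo1, Homer1 and Actb were not called. Reln was higher too, at 3.19 and 2.72 FPKM in soma and 7.36 and 6.22 FPKM in neurites (1.13). Sv2b was lower (-0.70), and 5 hosts of the m6A pathway, 6 activity-induced hosts and 3 astrocyte hosts had none that passed. Of the RNAs of the 9 highest windows, Kbtbd11 alone passed, at 8.33 and 8.07 FPKM in soma and 14.1 and 15.0 FPKM in neurites (0.76).

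KCl was compared with no KCl in WT soma. The WT editing level averages libraries with and without KCl, and a site needs a minimum of reads to be called. RNAs that are scarce without KCl could thus have become hosts through the KCl libraries. The part of this in the calls after KCl was not tested. Npas4, an activity-dependent transcription factor, stood at 1.26 and 1.18 FPKM without KCl and 205 and 390 FPKM with it (log2 fold change 7.94, SE 0.33, edgeR adjusted p = 2.38e-07). Fosb, a subunit of AP-1, went from 0.191 and 0.272 FPKM to 52.6 and 79.9 FPKM (8.17), and the nuclear receptor Nr4a2 from 1.31 and 1.32 FPKM to 176 and 220 FPKM (7.23). The groups did not overlap for these RNAs, which again were picked as the largest called rises. Txnip, which binds thioredoxin, fell from 9.53 and 12.5 FPKM to 2.66 and 1.56 FPKM (-2.39), and the histone RNA H2ac12 and Kctd5 fell with log2 fold changes of -1.29 and -1.26. H2ac12 lost its call without untreated soma replicate 1 (edgeR adjusted p = 0.179), without untreated soma replicate 2 (0.0679) and without KCl soma replicate 2 (0.0757). The highly edited sites of these 6 RNAs ranged from 10.1% to 15.8%.

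Of the 1354 hosts tested, 60 were higher after KCl (4.43%) and 6 lower (0.443%), at an adjusted p of at most 0.05 and a change of at least 2-fold. Of all genes tested, 3.80% were higher and 3.01% lower, and of the RNAs with other sites only 3.87% and 1.21%. All 6 activity-induced hosts rose, including Fosl2 (3.51), Bdnf (2.17 and 2.18 FPKM to 18.8 and 19.2 FPKM, 3.13) and Nptx2 (1.40). The list holds genes chosen for their induction by activity, so this rise follows from the list and is not read as a trait of hosts. Calls of its members without a highly edited site were not counted. Kbtbd11, with the fourth highest site, fell from 8.33 and 8.07 FPKM to 3.51 and 3.95 FPKM (-1.13), and Zfp131 rose (1.29). The number of hosts called lower was 3 (0.222%) without untreated soma replicate 2, against 1.37% of all genes, and 32 (2.37%) without KCl soma replicate 2, against 3.72%.

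Last, untreated Mettl3 KO soma was compared with untreated WT soma. Of 1355 host RNAs tested, 1 was called lower (0.0738%) and none higher, against 0.124% lower and 0.0643% higher of all 23335 genes tested. Of RNAs with other sites only, 0.119% were lower and 0.0237% higher. At an unadjusted p of at most 0.05 and the same 1.5-fold change, 53 hosts were higher (3.91%) and 71 lower (5.24%). The shares were 4.24% and 4.27% of all genes, and 5.77% and 3.51% of RNAs with other sites only. DESeq2 called 8 hosts higher (0.590%) and 18 lower (1.33%), against 0.810% and 0.960% of all genes and 1.14% and 0.807% of RNAs with other sites only. Without KO soma replicate 1 the calls grew over all genes, mostly downwards: edgeR called 72 hosts higher (5.31%) and 60 lower (4.43%), against 3.09% and 8.29% of all genes. In this refit the hosts' shares were below those of RNAs with other sites only in both directions. Its median log2 fold change was 0.04 in hosts, 0.13 in RNAs with other sites only and 0.01 in all genes. The refit leaves 1 library in the KO group, so no trait of hosts is read from these shares. With no library left out, the median log2 fold change was -0.04 in hosts, 0.03 in RNAs with other sites only and 0.02 in all genes.

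The mouse line and the loss of Mettl3 cannot be told apart in this comparison. The hosts of the highest sites were not called, among them Psmd12, at 69.4 and 67.8 FPKM in WT and 76.6 and 129 FPKM in KO (log2 fold change 0.60, SE 0.30), and Kbtbd11, at 8.33 and 8.07 FPKM in WT and 4.80 and 3.46 FPKM in KO (-0.95, SE 0.34). The WT and KO libraries did not overlap for either RNA, but 2 libraries a group can be separate without a change. The edgeR adjusted p was 0.611 for Psmd12 and 0.410 for Kbtbd11. The 11 astrocyte markers summed to 267 and 273 FPKM in WT and 532 and 498 FPKM in KO. The 7 microglial markers summed to 3.55 and 3.11 FPKM in WT and 5.53 and 5.37 FPKM in KO. For the 7 oligodendrocyte lineage markers the sums were 8.84 and 9.86 FPKM and 31.3 and 15.2 FPKM. Neuronal and fibroblast or vascular sums overlapped between the genotypes. The part of cell types in the result was not tested.

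**Figure D5:**
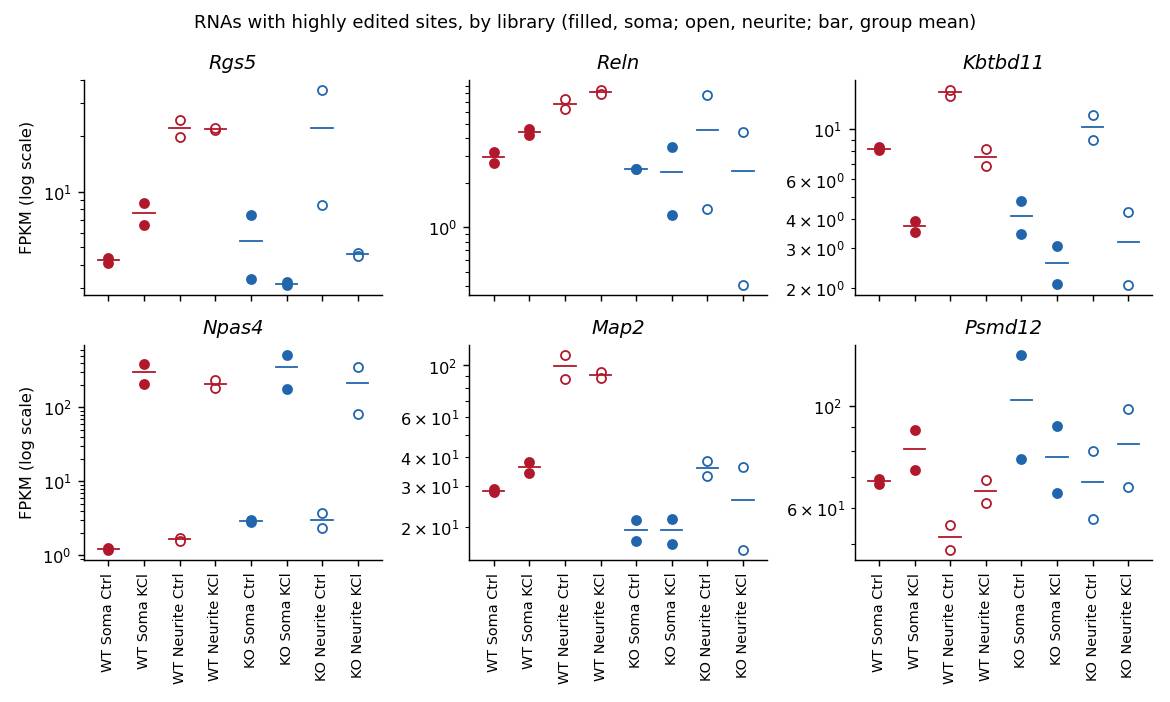
FPKM (y axis, log scale) of 6 RNAs with highly edited sites in the 16 RNA-seq libraries, 2 points per group (x axis) with the group mean as a bar, soma filled and neurite open, WT in red and Mettl3 KO in blue. Npas4 is high in the KCl libraries of both genotypes, and Kbtbd11 is lower with KCl than without in WT soma and in WT neurites.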

How the data were processed

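The deposited site list, gene counts and per-RNA editing scores were used, all on the mm10 build. The authors aligned RNA-seq reads with STAR 2.7.7a and counted them per gene with featureCounts 2.0.1 (submitters' processing notes), so the deposited RNA-seq values are raw counts. The deposited editing level of a site is a fraction, which the authors averaged over the WT DART-seq libraries after removing duplicate reads and calling C2U sites against Mettl3 KO libraries with their Bullseye pipeline in exons and extended 3′UTRs. The deposited editing score of an RNA is the authors' value over its sites, per genotype and per compartment. Columns of fold changes and adjusted p-values from the authors' own tests, in the editing table and in 2 tables of differential expression, were not used. Every column with values of a sample was matched to a sample of the series, and all 37 mitochondrial genes had a count of 0.

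Sites were placed on GENCODE M21 transcripts through the gene symbol, 177 lines through synonyms in RefSeq GRCm38.p6, while 44 lines stayed unmatched. All 18231 edited bases were a C after GA or AA in the genome. Each site was described with 31- and 101-base windows of that genome. Counts were tested with edgeR 4.0.16 (R 4.3.3), quasi-likelihood with TMM scaling, on genes whose counts averaged 10 or more, with Benjamini-Hochberg adjustment over all genes tested. The WT comparisons used the 8 WT libraries and the KO comparison all 16. FPKM used TMM-scaled library sizes and deposited exon lengths. The edgeR code was tested on simulated data. With 2 libraries a group, p-values measure the spread between cultures of distinct litters. By the study's methods, the 2 compartments of 1 insert were kept together and 1 litter served both KCl arms, but neither they nor the labels say that the replicate number marks the insert or litter. Deviations from the group means correlated between same-numbered libraries at -0.07 (soma and neurites), 0.03 (KCl) and 0.12 (KO and WT), and the fits had no replicate block. Site features were described without tests. Named were the 10 highest sites, the 5 RNAs with the most highly edited sites, the 5 sites on either side of the threshold, the RNAs the study describes, up to 4 RNAs per gene list, the 5 highest RNAs with 1 site, and the 3 largest called changes in each direction among genes averaging 100 counts or more. The threshold, members, gene lists and comparisons were chosen with earlier results of these data known. Alternatives were other thresholds, 1 site per RNA, unique windows, a minimum of 5 FPKM, another transcript choice and, for counts, DESeq2 1.42.0, RLE scaling, other filters, other sets of libraries, a replicate block and leaving out each of the 4 libraries compared in turn. Some of the RNAs named by these rules are not reported here.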

Additional observations from a re-analysis of the deposited data

How the results depend on the processing

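With a threshold of 0.05, 6142 sites in 3520 RNAs were highly edited, 40.6% of those exonic in coding transcripts were in 3′UTRs and 47.4% in last exons, 14.7% were followed by C, the median A and T content was 51.5% and the median abundance 13.4 FPKM. With a threshold of 0.20 these were 192 sites in 181 RNAs, 68.2%, 66.7%, 3.12%, 59.4% and 13.9 FPKM. In RNAs of at least 5 FPKM the median abundance was 15.4 FPKM. The direction against the other sites was the same in each of these, and with 1 site per RNA, without windows found elsewhere and with the transcript of longest exonic sequence these site values moved by less than their confidence intervals or, for counts, by less than 1.5-fold. That holds for the values of the highly edited sites. With 1 site per RNA, 24.5% of the other sites were followed by C and their median abundance was 13.2 FPKM, so these gaps were smaller.

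Fitting all 16 libraries, edgeR called 0 hosts higher and 0 lower in neurites (common biological coefficient of variation 0.381, against 0.151 in the 8 WT libraries), and 38 higher and 0 lower after KCl. Leaving out 1 library gave 100 to 149 hosts higher and 16 to 84 lower in neurites, 58 to 65 and 3 to 32 after KCl, and 0 to 72 and 1 to 60 in KO soma. In KO soma, DESeq2 called 8 hosts higher and 18 lower, no filter on low counts 17 and 8, a mean count of at least 100 gave 2 lower, and the 4 libraries alone 0 lower. With the replicate block, the counts higher and lower were 140 and 69 in neurites, 59 and 6 after KCl, and 0 and 1 in KO soma. Treating same-numbered libraries as pairs in this way moved none of these counts by over 1.5-fold. For the 12 RNAs named for their change, none reversed in 132 refits, and 117 of these kept the call while 15 did not, of which 9 were the fits to all 16 libraries and the others were refits without 1 library, 3 for H2ac12, 2 for Spp1 and 1 for Blnk. The editing levels are means with no deposited depth, so no error can be given for a single site, and 2 libraries a group limit the RNA-seq comparisons, most in KO soma.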
